A study of Mus musculus with 12 samples.

Results

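Cytotoxic lymphocytes kill target cells by releasing granules that hold perforin, a protein that forms pores, and granzymes, serine proteases that enter the target and cut its proteins. Serpins are inhibitors that trap a protease in an inactive complex, and those that stay inside the cell can protect it from proteases that leak from granules or lysosomes. Interleukin-4 (IL-4) binds a receptor whose kinases phosphorylate the transcription factor STAT6, which then drives IL-4 target genes such as those for class switching in B cells. Granzymes and perforin are known mainly from natural killer (NK) cells and T cells, not from B cells.

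The 9 genes described are Gzma and Gzmb (granzymes A and B), Prf1 (perforin), Nkg7 (a protein of the cytotoxic granule membrane), and the serpins Serpina3f, Serpina3g, Serpinb9, Serpinb6a and Serpinb1a. They were taken by gene name from 34650 names on the array and are covered by 11 of its 55681 probes; all 9 are among the 16497 genes that passed the filter on dim signals. The members were chosen by their measured change with IL-4 in wild-type cells, so for the members every value from that contrast, or from one that shares its arrays, is given as a description without a p-value; this covers knockout against wild type without IL-4, which uses the same wild-type controls. Members are tested only for the IL-4 response of knockout cells, which shares no array with the wild-type response. For genes that are not members an adjusted p can be given in any contrast, though it is not printed with every value.

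Splenic B cells were enriched by negative selection from BALB/c females aged 9 weeks that either were wild type or lacked STAT6 (STAT6 ko in the labels, knockout below). All 4 groups, controls included, received an antibody to CD40 at 10 µg/ml and lipopolysaccharide (LPS) at 2 µg/ml for 4 days, so the controls are activated B cells. IL-4 was added at 25 ng/ml to 1 group of each genotype, and each of the 4 groups (control and IL-4 for the wild type, control and IL-4 for the knockout) has 3 Agilent 1-colour arrays. The labels do not say whether the 3 samples of a group came from separate mice, so p-values measure only the spread between these samples, which may be technical.

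Levels are log2 signals relative to the 75th percentile of their own array, and a level can be compared between arrays for 1 probe but not between probes. Between 40.7% and 44.0% of spots per array were well above background, no spot was saturated, and arrays of a group correlated across genes at r = 0.994 to 0.998. The precision of every value is limited by the 3 arrays per group. Stat6, the deleted gene, was lower in knockout than in wild-type cells by a log2 difference of -1.94 ± 0.08 (SE) without IL-4 (adjusted p = 1.03e-06), but all 3 of its probes stayed well above background in the knockout. 1 slide holds the 6 arrays of the wild type together with knockout controls 1 and 2, and the other slide holds the 3 knockout IL-4 arrays together with knockout control 3. The contrasts that involve knockout arrays are therefore partly tied to slide. With slide as a block, the knockout IL-4 response is measured against knockout control 3 alone, so calls under that setting rest on 1 control. In these bulk samples, fewer cells of a type and less RNA per cell cannot be told apart.

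Probes of related genes can share sequence, so the stretches that stand behind the strongest responses are shown first. They are the first 30 of the 60 bases of each probe, as the scanner files give them, with the probe's position in mm9; their place in exons or untranslated regions was not analysed here.
Gzma, chr13:113884035-113884094, minus strand: tgtctttcactccatccctgtcacttctgt
Gzmb, chr14:56877916-56877975, minus strand: ccccgagaatgttatctaatgctagtcatc
Serpina3g, chr12:105480045-105480104, plus strand: tgtctcttgttgaccaactacgtaggactg
Serpina3f, chr12:105458989-105459048, plus strand: aaggtttaagaagggaacctgcaactgtgg
Serpina3f second probe, chr12:105492556-105492615, plus strand: ccttcatcacccaaattgaaagggcaggag
The second Serpina3f probe also lists a transcript of Serpina3h among its targets and lies beyond Serpina3g, so its signal cannot be given to Serpina3f alone. None of the Serpina3f and Serpina3g probes shares a run of 16 or more bases with a probe named for another gene. The Serpinb6a probe does share such a run with probes of Serpinb6c and Serpinb6e, so its level is uncertain where those paralogs are present. The Gzma probe shares a run of 16 bases with an unnamed probe, taken up below, and with a probe named only by its position on chromosome 3.

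Gzma was well above background in wild-type cells given IL-4 and in no other group. Its levels in the wild-type IL-4 arrays were 2.16, 2.54 and 2.30. In the wild-type controls they were -5.90, -5.93 and -6.03, in the knockout controls -5.52, -5.57 and -5.79, and with IL-4 in the knockout -5.93, -5.56 and -5.82. The 3 wild-type IL-4 arrays thus stood far above the other 9, none of which was well above background. A dim group allows only a bound, computed against the lowest signal well above background on each array: in wild-type cells Gzma was higher with IL-4 by at least 70.8-fold, and at least 81.7-fold lower in knockout than in wild-type cells given IL-4. In the knockout the fitted response was -0.14 ± 0.12 (95% interval -0.41 to 0.12, adjusted p = 0.367) between groups that both lie at background. The difference of the responses, wild type minus knockout, was 8.43 ± 0.17 on the log2 scale, a fitted value that rests on signals at background.

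Gzmb, the granzyme that activates caspases in target cells, had the same order of groups at a lower signal. It read -2.20, -1.73 and -2.73 in the wild-type IL-4 arrays, each well above background. In the wild-type controls it read -4.12, -5.69 and -5.80, in the knockout controls -5.06, -5.57 and -4.82, and in the knockout IL-4 arrays -5.69, -4.51 and -5.03. None of these 9 arrays was well above background and none overlapped the wild-type IL-4 group, although wild-type control 1 lay closer to it than the other controls did. The bounds were at least 3.01-fold higher with IL-4 in wild-type cells and at least 3.47-fold lower in the knockout given IL-4. The knockout response was 0.08 ± 0.47 (interval -0.96 to 1.11, adjusted p = 0.913), both groups being at background.

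Prf1 and Nkg7 were present in all 4 groups and were lower with IL-4 by small amounts. Prf1 read -0.36, -0.39 and -0.54 in wild-type controls and -0.89, -0.91 and -0.86 with IL-4, a group difference of -0.46 ± 0.10 with no overlap. In the knockout it read -0.73, -0.50 and -0.25 without and -0.67, -0.77 and -0.79 with IL-4, and these groups overlapped. The knockout difference of -0.25 ± 0.10 did not pass (adjusted p = 0.0808). It passed without knockout control 1 (-0.36, adjusted p = 0.00775). It did not without knockout control 3 (-0.12, adjusted p = 0.266) or with scaling to the median (-0.09, adjusted p = 0.558). With slide as a block, which leaves knockout control 3 as the only control, the difference was -0.49. With slide as a random block the knockout difference passed (-0.30, adjusted p = 0.0482). Perforin transcript was thus not higher in the group where both granzymes were.

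Nkg7 fell with IL-4 in the knockout by 0.30 ± 0.06 (adjusted p = 0.00359). Its levels there were 2.10, 2.22 and 2.16 without and 1.93, 1.84 and 1.81 with IL-4, with no overlap. In wild-type cells they were 2.39, 2.22 and 2.35 without and 1.96, 2.10 and 2.08 with IL-4, a difference of -0.28 ± 0.06. Scaling the arrays to the median, which raises the median knockout response of all genes by 0.15, reduced the knockout value to -0.15 (adjusted p = 0.268). A second Nkg7 probe differed at low signal and was well above background on 2 of the 3 wild-type IL-4 arrays and on none of the others, with levels of -3.88, -3.46 and -3.28 in that group against -5.66, -6.04 and -6.15 in wild-type controls. In the knockout this probe read -5.63, -5.87 and -6.09 without and -4.48, -4.73 and -5.22 with IL-4, at background in both groups. The probes of Nkg7 therefore disagree in direction in both genotypes, in the knockout on readings at background. The second probe did not pass the filter.

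**Figure D1:**
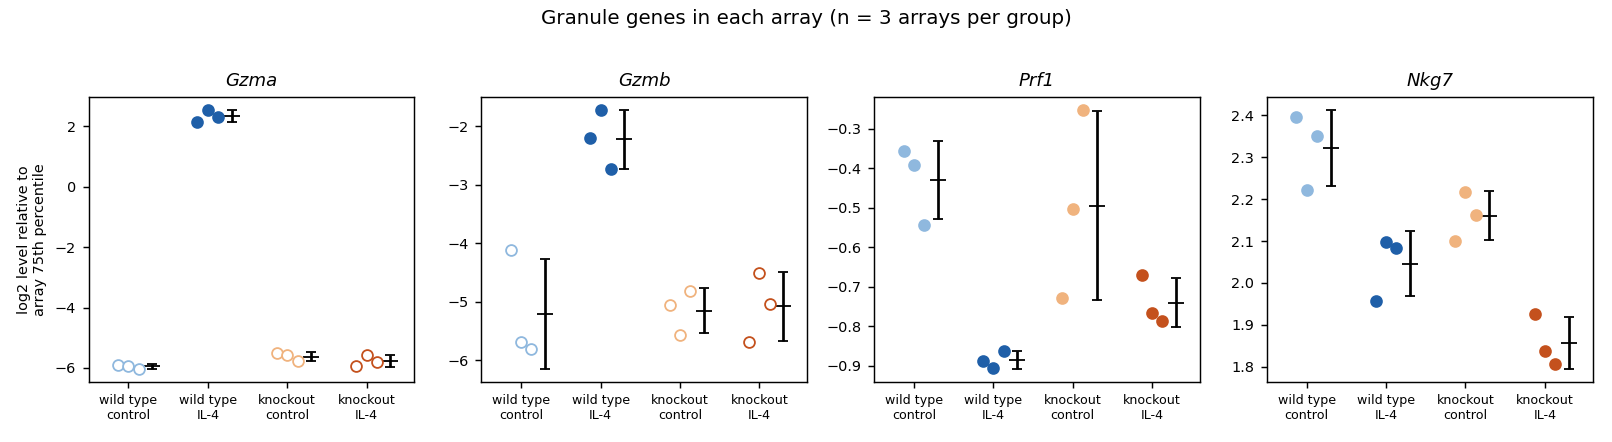
Levels of Gzma, Gzmb, Prf1 and Nkg7 in each of the 12 arrays (y axis, log2 signal relative to the array's 75th percentile; x axis, the 4 groups). Filled points mark groups well above background on all 3 arrays and open points groups above it on none; black bars are the mean and SD, n = 3, and only in the wild-type IL-4 group are the points of Gzma and Gzmb filled.

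Serpina3g, also called Spi2A, is a serpin of the cytosol and nucleus known to inhibit lysosomal cysteine cathepsins. All 12 arrays gave it a signal well above background. It read 4.21, 4.23 and 4.18 in wild-type controls and 7.89, 7.88 and 7.80 with IL-4, a level 12.5-fold higher (log2 3.65 ± 0.05). Without IL-4 the knockout read 4.08, 4.04 and 4.08, and with IL-4 3.95, 3.98 and 4.14. These 2 knockout groups overlapped, and the response of -0.04 ± 0.05 (interval -0.17 to 0.08) did not pass (adjusted p = 0.546). With IL-4 the knockout level was 14.3-fold below the wild-type level.

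Serpina3f, a neighbour of Serpina3g in the mouse clade A3 cluster, was 24.2-fold higher with IL-4 in wild-type cells. It read 1.66, 1.504 and 1.42 with IL-4 against -3.57, -2.45 and -3.18 without. The knockout read -3.94, -3.23 and -3.39 without and -2.85, -1.47 and -2.98 with IL-4. The probe was well above background on 2 of 3 arrays in each control group and on all 3 in each IL-4 group. It was the only member that rose in the knockout, by 1.09 ± 0.39 (2.12-fold, adjusted p = 0.0481), with no overlap between groups. That call rested on single arrays. It was lost without knockout IL-4 array 2, the highest of its group (0.61, adjusted p = 0.149), without any 1 of the 3 knockout controls (0.88 to 1.23, adjusted p from 0.0629 to 0.137), and without wild-type control 3 or any 1 of the 3 wild-type IL-4 arrays, which enter through the shared spread (1.09, adjusted p from 0.0623 to 0.0639). With slide as a block it was 0.96 (adjusted p = 0.233). The second probe, above background only with IL-4 in the wild type, had a fitted change of 3.07 ± 0.26 there and 1.03 ± 0.26 in the knockout.

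Serpinb9 (also called SPI6), the intracellular inhibitor of granzyme B, was 4.19-fold higher with IL-4 in wild-type cells. Its levels were -1.95, -2.07 and -2.29 without and -0.22, 0.11 and 0.01 with IL-4. In the knockout they were -2.43, -2.91 and -2.39 without and -2.62, -2.56 and -2.52 with IL-4, an overlap, and the response was 0.00 ± 0.14 (interval -0.31 to 0.32, adjusted p = 0.989). Without IL-4 the knockout lay below the wild type on every array, by -0.47 ± 0.14, a description since the wild-type controls took part in the choice of members. The value was -0.61 with quantile normalisation, -0.26 with normexp background correction and -0.54 without knockout control 1. Leaving out each array gave -0.57 to -0.30.

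Serpinb6a, an inhibitor of cathepsin G, was about level in all groups. Its lowest and highest arrays read 1.83 and 2.08, both of them knockout arrays. The IL-4 difference was -0.06 ± 0.06 in wild-type cells and -0.13 ± 0.06 in the knockout (adjusted p = 0.0824), with overlap in both. The knockout value passed without knockout IL-4 array 3 (-0.17, adjusted p = 0.0334) and with quantile normalisation (-0.20, adjusted p = 0.0310), and with scaling to the median it was 0.02.

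Serpinb1a, an inhibitor of neutrophil elastase and cathepsin G, was lower with IL-4 in both genotypes. In wild-type cells it read 4.22, 4.25 and 4.21 without and 2.25, 2.22 and 2.20 with IL-4, 4.00-fold lower. In the knockout it read 4.42, 4.25 and 3.92 without and 3.54, 3.47 and 2.98 with IL-4. The groups did not overlap, and it fell there by 0.87 ± 0.15 (1.83-fold, adjusted p = 0.00109). With slide as a block, against 1 control, the decrease was 0.60. The wild-type decrease exceeded the knockout decrease by a log2 difference of -1.13 ± 0.21, given as a description.

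**Figure D2:**
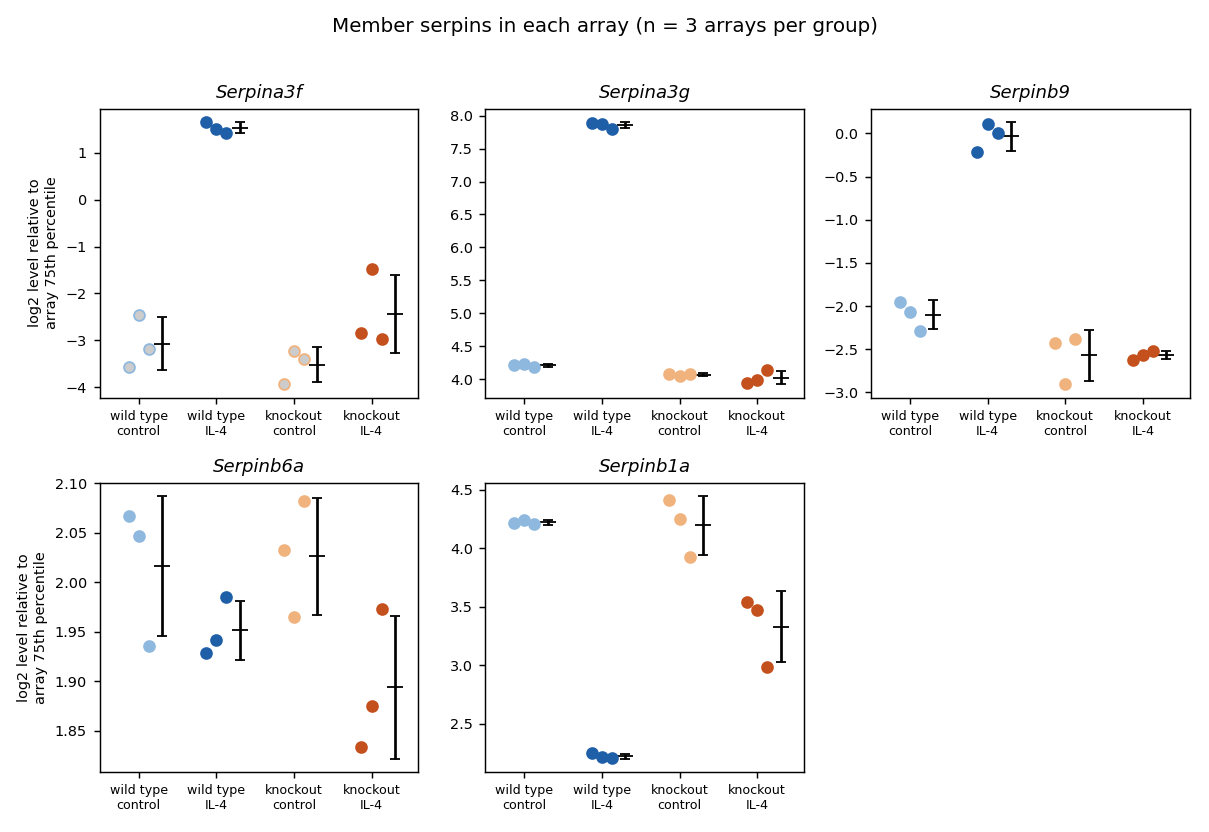
Levels of the 5 member serpins in each of the 12 arrays (y axis, log2 signal relative to the array's 75th percentile, with its own range in each panel; x axis, the 4 groups). Grey-filled points mark groups above background on 2 of 3 arrays, black bars are the mean and SD (n = 3), and Serpina3f, Serpina3g and Serpinb9 are highest in the wild-type IL-4 group while Serpinb1a is lowest there.

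Counted together, 5 of the 9 members were higher and 3 lower with IL-4 in wild-type cells at an adjusted p under 0.05, where 26.4% of all genes tested were higher and 30.8% lower; because the members were proposed from this contrast, nothing is read from the count. In the knockout 1 member rose and 2 fell, against 27.5% and 14.7% of all genes tested. With scaling to the median, which moved those shares to 35.8% and 7.76%, 1 member rose and 1 fell. The median log2 response of the members in the knockout was -0.13, beside 0.05 for all genes. Without IL-4, 0 of 9 members differed between the genotypes in either direction in the limma fit, where 4.73% of all genes were higher and 6.96% lower in the knockout. Leaving out any 1 wild-type control, or knockout control 2 or 3, lowered these shares to between 0.80% and 1.33% higher and between 1.52% and 2.34% lower, and leaving out knockout control 1 raised them to 8.34% and 14.3%. The share lower was 12.4% without knockout IL-4 array 3 and 4.39% to 4.56% without any 1 wild-type IL-4 array. As a description, the members whose arrays did not overlap between the genotypes were Gzma, Nkg7, Serpina3g and Serpinb9. Gzma read higher in the knockout (log2 0.33, at background in both groups). Nkg7 (-0.16), Serpina3g (-0.14) and Serpinb9 (-0.47) read lower. With scaling to the median, which lowers the median of this contrast over all genes by 0.18 (from -0.04 to -0.22) and moves the shares to 2.82% and 30.9%, Nkg7 (-0.35), Serpina3g (-0.33) and Serpinb9 (-0.65) were past the threshold as lower. With IL-4 in both genotypes, 1 member was higher and 6 were lower in the knockout, where 29.8% and 21.3% of all genes were. Among the 6 lower, the Nkg7 call (-0.19) was lost under 10 alternatives, among them the replicate block and only the arrays compared. For the difference of the responses, 5 members had a higher and 1 a lower wild-type than knockout response, where 16.4% and 28.3% of all genes did. All 3 contrasts between the genotypes hold arrays that chose the members, so these counts are descriptions.

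**Figure D3:**
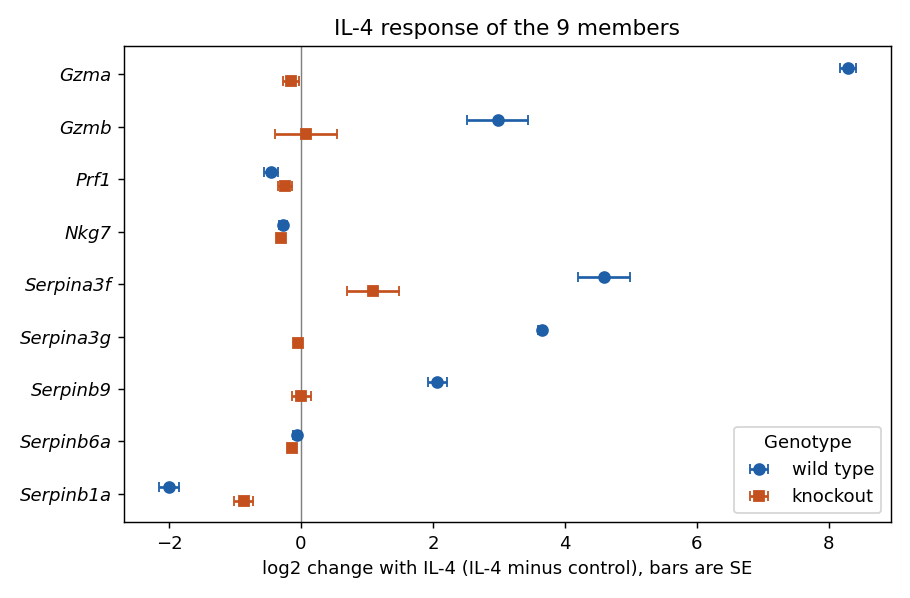
Fitted log2 change with IL-4 for the 9 members (x axis; IL-4 minus control, n = 3 arrays per group) in wild-type cells (circles) and knockout cells (squares), with SE bars. The values of Gzma and Gzmb rest on control groups at background; in the knockout, 8 of the 9 lie between -0.87 and 0.08, and Serpina3f lies at 1.09.

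The other granzymes gave 1 more gene with this order of groups. Of 10 granzyme genes on the array 4 passed the filter, which a gene can do through the wild-type IL-4 group alone. Of these, 3 were higher with IL-4 in wild-type cells, where 26.4% of all genes tested were. None of the 4 passed in the knockout, where 27.5% of all genes rose and 14.7% fell. Gzma, Gzmb and Gzmc lay at background in both knockout groups, so for them this count cannot show whether a response was missing. Gzmc, which lies next to Gzmb on chromosome 14, read -1.67, -1.50 and -2.26 with IL-4 in wild-type cells, and was not well above background in any other group; the bound was at least 4.00-fold. Gzmm, known from NK cells, was present in all groups and did not pass in either genotype (log2 -0.08 ± 0.13 in the wild type and 0.25 ± 0.13 in the knockout, adjusted p = 0.637 and 0.146). In the knockout it passed with scaling to the median (0.40, adjusted p = 0.0472). With slide as a block, against 1 control, its change there was 0.52. Gzmk, the neighbour of Gzma on chromosome 13, was not above background on any array.

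Among the clade A3 serpins, a tandem array of genes on chromosome 12 that corresponds to a single antichymotrypsin gene in humans, 6 of 11 passed the filter. With IL-4 in wild-type cells 4 were higher and none lower, where 26.4% and 30.8% of all genes tested were. In the knockout, where 27.5% of all genes rose and 14.7% fell, only Serpina3f of these 6 passed. Serpina3i, whose probe follows those of Serpina3g and Serpina3h on the chromosome, read -1.06, -1.16 and -1.10 without and 2.89, 2.95 and 2.90 with IL-4 in wild-type cells. That was a change of 4.02 ± 0.08, and in the knockout it changed by -0.05 ± 0.08 (adjusted p = 0.650). A second Serpina3i probe overlapped in wild-type cells, reading -5.67, -4.99 and -1.45 without and -2.36, -2.36 and -2.89 with IL-4. In the knockout this second probe was not well above background on any array. Serpina3c was above background only in wild-type cells with IL-4, at least 2.08-fold higher. It passed the filter through that group alone, so its place in the wild-type count was fixed by the filter and its knockout response cannot be read. Serpina3b and Serpina3h, which lie in the same array, were measured in all groups and did not pass in the wild type (-0.21 ± 0.16 and -0.12 ± 0.17, adjusted p = 0.279 and 0.572) or the knockout (0.02 ± 0.16 and -0.06 ± 0.17, adjusted p = 0.940 and 0.809). This Serpina3h probe, the only one, shares a run of 22 bases with the second Serpina3i probe, so the Serpina3h values are uncertain.

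Of 27 clade B serpins, the intracellular group, 7 passed the filter. In wild-type cells with IL-4, 2 were higher (Serpinb6b and Serpinb9) and 4 lower (Serpinb1a, Serpinb2, Serpinb6c and Serpinb8). Of all genes tested, 26.4% were higher and 30.8% lower in that contrast. Serpinb6b, a mouse inhibitor of granzyme A, read 1.06, 1.24 and 1.00 without and 5.18, 5.23 and 5.08 with IL-4, a change of 4.06 ± 0.08. In the knockout it fell with IL-4 by 0.28 ± 0.08 (adjusted p = 0.0170), and without IL-4 it was higher in the knockout than in the wild type by 0.37 ± 0.08 (adjusted p = 0.0227). With scaling to the median neither passed (-0.13, adjusted p = 0.328, and 0.19, adjusted p = 0.152), nor did the second with slide as a block (0.31, adjusted p = 0.0825). It lies between Serpinb1c and Serpinb9 on chromosome 13, so in this cluster Serpinb6b and Serpinb9 were higher and Serpinb1a lower with IL-4 in the same wild-type cells. Serpinb2, an inhibitor of urokinase, was lower with IL-4 in the wild type, by at least 1.97-fold, since it was not above background there. In the knockout it did not pass (0.36 ± 0.25, adjusted p = 0.274). With slide as a block, against 1 control, its change in the knockout was 0.98. Serpinb6c and Serpinb8 were lower in the wild type, with log2 changes of -0.15 ± 0.04 and -0.26 ± 0.09. They did not pass in the knockout (-0.09 ± 0.04 and -0.06 ± 0.09, adjusted p = 0.137 and 0.605). With quantile normalisation Serpinb6c passed in the knockout (-0.16, adjusted p = 0.0175). Neither wild-type call held with scaling to the median, which left 2 of the 4 lower. A second Serpinb6c probe, above background on all 12 arrays, went the other way, with group means of -3.08 without and -2.75 with IL-4 in wild-type cells.

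**Figure D4:**
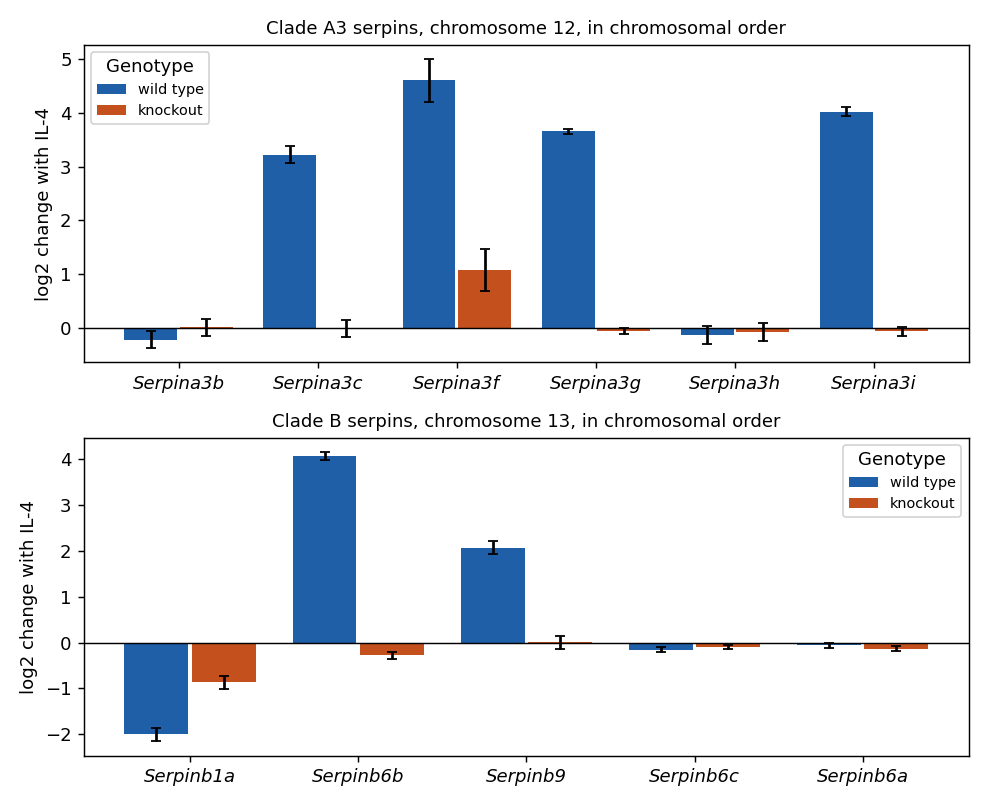
Fitted log2 change with IL-4 (y axis, bars with SE, n = 3 arrays per group) in wild-type and knockout cells for the tested clade A3 serpins of chromosome 12 (top) and clade B serpins of chromosome 13 (bottom), each in chromosomal order. Genes with large wild-type changes, such as Serpina3g (3.65) and Serpina3i (4.02), stand beside Serpina3h (-0.12), and Serpinb6b (4.06) stands near Serpinb1a (-2.001).

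Of 25 other serpins, mostly of the extracellular kind, 4 were tested, and 3 were lower and none higher in wild-type cells with IL-4, where 30.8% of all genes tested were lower. These were Serpine2, an inhibitor of thrombin and urokinase (-3.02 ± 0.15), Serpini1, neuroserpin (-1.60 ± 0.11), and Serpinf1, a serpin without inhibitory activity (-0.91 ± 0.09). Serpinf1 also fell in the knockout, by 0.71 ± 0.09 (adjusted p = 2.29e-04), and was higher in knockout than in wild-type cells without IL-4 by 0.74 ± 0.09 (adjusted p = 0.00172). Serpine2 and Serpini1 did not pass in the knockout response (-0.07 ± 0.15 and 0.26 ± 0.11, adjusted p = 0.733 and 0.0750), but Serpini1 passed with scaling to the median (0.41, adjusted p = 0.0311). With slide as a block, against 1 control, the Serpini1 change was 0.46. Serpina11 did not pass in either genotype (-0.32 ± 0.20 and -0.11 ± 0.20, adjusted p = 0.198 and 0.690).

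Genes of granule storage and release did not move in 1 direction. Of 16 tested, Prf1 and Nkg7 included, 7 were higher and 6 lower in wild-type cells with IL-4, where 26.4% and 30.8% of all genes were. In the knockout 4 rose and 3 fell, where 27.5% and 14.7% of all genes did. With quantile normalisation 2 rose and 5 fell in the knockout, and with scaling to the median 0 fell there and 3 were lower in the wild type. In the knockout Rab27a, a GTPase for granule docking, rose by 0.73 ± 0.09 (adjusted p = 1.58e-04) and Srgn, the proteoglycan serglycin that packs granzymes, by 0.44 ± 0.07 (adjusted p = 5.62e-04); their wild-type changes were 0.59 ± 0.09 and 0.82 ± 0.07. Lyst, which governs the size of lysosomes and granules, fell by 0.43 ± 0.10 in the knockout (adjusted p = 0.00572) and changed by -1.47 ± 0.10 in the wild type; the knockout call was lost with scaling to the median (-0.28, adjusted p = 0.0917) and with slide as a block (-0.20, adjusted p = 0.143).

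Of 9 tested proteases that serpins inhibit, 5 were higher and 2 lower in wild-type cells with IL-4, where 26.4% and 30.8% of all genes were. In the knockout 2 rose and 3 fell, where 27.5% and 14.7% of all genes did. With scaling to the median 1 fell there, and with quantile normalisation 1 rose. Ctsl, cathepsin L, one of the cathepsins that Serpina3g inhibits, was 3.99-fold higher with IL-4 in wild-type cells and fell by 0.23 ± 0.07 in the knockout (adjusted p = 0.0214); it was picked after its values had been seen. In the knockout Casp1 rose by 0.21 ± 0.04 and Ctsz by 0.33 ± 0.06 (adjusted p = 0.00175 and 0.00156), while Ctsh fell by 0.16 ± 0.04 (adjusted p = 0.00862). With scaling to the median the decreases of Ctsl (-0.07, adjusted p = 0.585) and Ctsh (-0.003, adjusted p = 0.978) did not pass, Ctsh also lost its call under the slide block (-0.16, adjusted p = 0.0559), and Casp1 did not with quantile normalisation (0.11, adjusted p = 0.0665). Ctsf fell by at least 1.92-fold in the knockout (adjusted p = 0.00200) and was lower by at least 1.73-fold in the wild type.

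Of 15 tested transcription factors that regulate cytotoxic genes, 7 were higher and 5 lower in wild-type cells with IL-4, where 26.4% and 30.8% of all genes were. In the knockout 9 rose and 4 fell, where 27.5% and 14.7% of all genes did. With slide as a block 5 rose there, and with scaling to the median 2 fell. Tbx21 (T-bet), a driver of granzyme and perforin genes in NK and T cells, rose with IL-4 in the knockout by 2.48 ± 0.33 (5.56-fold, adjusted p = 2.47e-04), while both wild-type groups lay at background. The group with the highest Tbx21 signal, knockout cells given IL-4, differs in genotype and slide from the group with the granzyme signal. A part of Tbx21 in the granzyme results was not tested. Prdm1 (Blimp-1) fell in the knockout by 1.69 ± 0.08 (adjusted p = 6.42e-07) and changed by -2.81 ± 0.08 in the wild type. Stat4 and Runx3 rose in the knockout by 0.65 ± 0.07 and 0.60 ± 0.08 (adjusted p = 6.18e-05 and 2.40e-04).

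Markers of other cells were read beside these results. In no group did any of 9 NK cell markers pass the background on all of its arrays. Their summed scaled signal was 0.207 to 1.33 in wild-type IL-4 arrays and 0.217 to 0.479 over the other groups. Ncr1, Klrb1c, Klrd1, Klre1, Klrk1 and Klrc1 were above background on no array. Klra4 and Klra8 were above it on at least 1 but not all of the wild-type IL-4 arrays and on no other array. Eomes was above it on at least 1 but not all of the wild-type controls and on no other array. Of 12 T cell markers 7 or 8 were above background in each group, Cd8a and Cd8b1 in none, and the summed signal was 139 to 148 in wild-type IL-4 arrays against 33.2 to 42.1 elsewhere. That sum moved with Thy1, higher by at least 1530-fold with IL-4 in wild-type cells. Thy1 was not the only T cell marker to change there. Of 8 tested, 3 were higher, 2 of them at least 2-fold, 1 was lower, at least 2-fold, and 4 did not pass. Cd3e was among those that did not pass (log2 0.28 ± 0.18, adjusted p = 0.209). All 8 B cell markers were above background in all groups, with sums of 1413 to 1801. Of 8 mast cell and basophil markers at most 1, and of 8 neutrophil markers 1, were above background in a group, with sums of at most 1.26 and 0.757. Of 8 macrophage markers 6 were above background in each group, and their sum was lower in the wild-type IL-4 arrays (26.1 to 27.0) than in the others (62.6 to 66.6); of 7 dendritic cell markers 3 or 4 were, with sums of 111 to 147. The part of T cells, macrophages and dendritic cells in the granzyme and serpin results was not tested.

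Likeness of pattern was measured by Pearson's r over the 12 arrays between each member and 16478 tested genes that are not members; the arrays share their groups, so a high r mostly says that the groups lie in the same order. The genes most like Gzma were Insm1 (r = 0.999), Gpr183 (r = 0.998) and the unnamed probe that shares 16 bases with the Gzma probe (r = 0.999). Those most like Serpina3g were Atp11a (0.999), Serpina3i (0.999) and Il5ra (0.998), and those most like Serpina3f were Acsl4 (0.984), Hsdl1 (0.981) and 4921525O09Rik (0.980). Serpinb9 was most like Slc31a2 (0.988), Nes (0.987) and Zc3h12c (0.987), and Gzmb most like an unnamed transcript (0.952), Nabp1 (0.951) and Gaa (0.950). Serpinb1a was most like Hmgcs1 (0.997), an unnamed transcript (0.995) and Anapc13 (0.993). Nkg7 was most like an unnamed transcript (0.982), Cdc42ep2 (0.969) and Tmem215 (0.968), and Prf1 most like 4931406C07Rik (0.949), 4931428F04Rik (0.945) and Psg23 (0.936). Serpinb6a, which hardly varied, reached 0.899 with Gm5741, 0.895 with a transcript named only by its sequence record and 0.876 with Rapgef1.

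STAT proteins bind palindromes of TTC and GAA. TTC and GAA with 3 bases between them (TTCNNNGAA) serve STATs in general, the same triplets with 4 bases between them are the spacing that STAT6 prefers, and GAAA repeated after 2 bases is an element of interferon regulatory factors. These motifs were searched on both strands in the 250 bases before the RefSeq start (GRCm38.p6) of the 8 members whose promoters were matched; that of Serpinb1a was not used here. TTCNNNGAA was found in 4 of the 8 (Serpina3f, Serpina3g, Nkg7 and Serpinb6a), where 7.02% of 32851 promoters hold it. The spacing of 4 bases was found in 0 of the 8, where 5.85% of promoters hold it, and the interferon element in 3 of the 8 (Gzma, Serpinb9 and Serpinb6a), where 2.98% do. A member counts if any of its promoters holds the motif (10 promoters for the 8 genes), while the shares are per promoter. A further Serpinb6a promoter held none of the 3 motifs. The windows around the TTCNNNGAA match are printed for the responding serpins of chromosome 12, with the match in capitals, Serpina3i being added, after its values had been seen, for its similar response.
Serpina3f, chr12:104214403-104214451, plus strand: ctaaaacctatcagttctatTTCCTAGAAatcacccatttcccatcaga
Serpina3g, chr12:104236094-104236142, plus strand: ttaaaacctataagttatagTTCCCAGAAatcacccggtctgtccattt
Serpina3i, chr12:104263000-104263048, plus strand: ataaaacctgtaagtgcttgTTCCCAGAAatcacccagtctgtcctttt
The Serpina3g and Serpina3i windows are identical at 42 of 49 bases, and that of Serpina3f is identical to Serpina3g at 32 and to Serpina3i at 31. The match ends 25 bases before the start of Serpina3g and 94 bases before that of Serpina3i. For Serpina3f it ends 113 bases before the nearer of 2 annotated starts. Serpina3i also holds the STAT6 spacing, as TTCCTAAGAA. No match to TTCNNNGAA was found for Serpina3b or Serpina3c, of which Serpina3c was higher with IL-4 in wild-type cells.

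The same motif stood before members with little response to IL-4, and the interferon element before members with a large one, as the next windows show with the match in capitals.
Nkg7, chr7:43436898-43436946, plus strand: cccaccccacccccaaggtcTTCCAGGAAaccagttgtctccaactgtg
Serpinb6a, chr13:34002843-34002891, minus strand: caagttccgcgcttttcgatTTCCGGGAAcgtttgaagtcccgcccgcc
Gzma, chr13:113101049-113101098, minus strand: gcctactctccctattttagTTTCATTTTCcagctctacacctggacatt
Serpinb9, chr13:33004475-33004524, plus strand: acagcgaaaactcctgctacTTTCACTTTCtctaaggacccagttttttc
The first 2 show TTCNNNGAA and the last 2 the interferon element read on the opposite strand. In Serpinb6a an interferon element, TTTCGATTTC, overlaps the STAT match. Gzmb, Prf1 and Gzmc held none of the 3 motifs in this window. A match is a description of letters and not of binding, which was not measured here.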

How the data were processed

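The deposited scanner files come from Agilent Feature Extraction 10.7.3.1, per the file headers, and hold a background-subtracted and detrended processed signal as an intensity per spot; no normalisation between arrays is recorded in them. The authors also deposited log2 values per gene name, background subtracted and quantile normalised per the file headers, which were used as an alternative.

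Processed signals were put on the log2 scale minus the array's 75th percentile, spots with outlier flags left out and spots of a probe averaged. Signals near background can be surrogates, which makes folds of dim genes unreliable. Probes that some group had well above background on each of its 3 arrays were kept (22940 probes), and a gene was represented by its brightest kept probe on average. limma 3.58.1 (R 4.3.3, with the packages jsonlite 2.0.0 and data.table in version 1.17.8) fitted group means over all 12 arrays, and Benjamini-Hochberg adjustment of p-values ran over 16497 genes per contrast (over kept probes for second probes). Rose and fell mean an adjusted p under 0.05. The fit was tested on simulated data. Intervals are at 95%. Python 3.11.15, pandas 2.3.3 and matplotlib 3.10.9 drew the figures and read sequences.

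The members and gene lists were chosen with earlier results of these data known. Named are the members, every tested granzyme, clade A3 and clade B serpin, up to 4 genes of each other list with the smallest adjusted p in the knockout response (every other serpin tested), and the 3 genes most like each member. Alternatives covered scaling, background correction, filter, probe choice, the authors' values, slide and replicate blocks, the arrays used and leaving out each array.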

Additional observations from a re-analysis of the deposited data

Results flagged for a closer look

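For 6 members the fitted difference between the IL-4 responses of the genotypes was at least 2-fold and past the threshold used for all genes. The wild-type minus knockout difference on the log2 scale was 8.43 for Gzma, 2.91 for Gzmb, 3.51 for Serpina3f, 3.69 for Serpina3g, 2.07 for Serpinb9 and -1.13 for Serpinb1a. The members were proposed from the wild-type response that enters each of these differences, so this is no independent test, and they are given as values only. Those of Gzma and Gzmb rest on groups at background.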

How the results depend on the processing

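No member's direction that had passed the test turned under any of the alternatives run. With only probes above background on all 12 arrays, 6 members could be tested: 2 were higher with IL-4 in wild-type cells, 2 had the higher wild-type response, 0 rose in the knockout, 1 was lower in the knockout without IL-4 and 3 with IL-4. The 1 member that rose in the knockout, Serpina3f, was lost (0 rose) with no filter on dim probes, with slide as a fixed or random block and with only the arrays compared; leaving out each array gave 0 to 1. With scaling to the median 1 member fell in the knockout, and 3 were lower in the knockout without IL-4; quantile normalisation and normexp correction each gave 1. Leaving out each array gave 0 to 1 lower in the knockout without IL-4 (Serpinb9 without knockout control 1, -0.54, and Serpina3g without knockout IL-4 array 3, -0.14) and 1 to 2 with the lower wild-type response (Prf1 added without knockout control 3, -0.33), all of them descriptions. Of all genes, 1929 differed between the genotypes without IL-4 as reported, 417 under the slide block, 905 from only the arrays compared, 271 when dim probes stayed in, 5569 with scaling to the median, and 384 to 3727 leaving out each array. With IL-4 8431 differed, and 5273 with slide as a block.

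Within the slide of the knockout IL-4 arrays, where knockout control 3 is the only control, a value without a test and chosen after seeing the data, the response was 0.96 for Serpina3f, -0.60 for Serpinb1a, -0.30 for Nkg7 and 0.02 for Gzma. Within the other slide, knockout controls 1 and 2 lay -0.57 from the wild-type controls for Serpinb9.

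Whether the replicate numbers pair the arrays is not settled by these values. Over 18 pairs of like number the correlation of deviations was -0.24 to 0.39, and 4 of 12 arrays correlated best with their own number. Most of these pairs join wild-type and knockout arrays, which cannot share a mouse. The 2 pairs over 0.1 join knockout control and knockout IL-4 arrays, at number 1 (0.32) and number 3 (0.39), while number 2 gave -0.02. Wild-type control and IL-4 arrays gave 0.03 to 0.07. With the replicate block, 5 members were higher and 3 lower with IL-4 in the wild type, 1 rose and 2 fell in the knockout, 0 differed without IL-4, and with IL-4 1 was higher and 5 were lower in the knockout.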
